A study of Mus musculus with 18 samples.

Results

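Skeletal muscle identity rests on 4 transcription factors, Myod1, Myog, Myf5 and Myf6, and the muscle's response to its nerve rests on the acetylcholine receptor, whose subunits are encoded by Chrna1, Chrnb1, Chrnd, Chrne and Chrng, and on Musk, the receptor kinase that gathers the receptor under the nerve ending. These 10 genes were followed across soleus, quadriceps and heart of mice on 18 Affymetrix arrays. Each gene was represented by the probe set whose platform symbol was that of the gene, and each had 1 such probe set that named no other gene, among 19938 genes measured. Values are log2 units of the deposited robust multi-array average (RMA), a brightness scale on which levels of different genes cannot be set against each other, so each gene is compared with itself across groups.

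The KO mice carried a floxed Egln1 locus and a tamoxifen-inducible Cre recombinase expressed in skeletal muscle, and the WT mice carried the Cre with wild-type Egln1. Both genotypes were back-crossed to C57BL/6 and given tamoxifen for 3 days before their muscles were taken. Egln1 encodes the prolyl hydroxylase that marks hypoxia-inducible factors for destruction. In a related experiment C57BL/6 mice wild type for Egln1 received the Egln inhibitor FG-4497 at 50 mg per kg by intraperitoneal injection, or vehicle, and their hearts were taken. The 6 groups, KO soleus, WT soleus, KO quadriceps, WT quadriceps, FG-4497 heart and vehicle heart, had 3 arrays each, labelled as biological replicates. The labels give neither the age or sex of the mice nor the promoter that drives the Cre. The descriptions give soleus and quadriceps arrays shared numbers, read here as animal numbers, which ties the muscles of 6 mice together.

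The myogenic factors are basic helix-loop-helix proteins that pair with E proteins and bind the E-box, a short motif in the promoters of many muscle genes. Myod1 and Myf5 commit cells to the muscle lineage, Myog drives their differentiation, and Myf6 is the member kept at a high level in mature fibres. The receptor is a pentamer of alpha, beta and delta subunits with either the fetal gamma subunit, encoded by Chrng, or the adult epsilon subunit, encoded by Chrne. In innervated adult fibres its genes are transcribed mainly by nuclei beneath the nerve ending, while electrical activity keeps them low elsewhere, and they rise along the whole fibre after denervation.

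Array medians lay between 6.68 and 6.81, and replicate arrays of a group correlated at 0.986 to 0.995 over all genes. The mean of 9 slow fibre markers was 13.5 in soleus of both genotypes, against 8.44 in KO quadriceps and 8.07 in WT quadriceps. The mean of 11 cardiomyocyte markers was 11.7 in both heart groups, against 7.76 to 7.90 in the 4 muscle groups. The series title speaks of smooth muscle, but the labels name skeletal muscle and heart, and these markers follow the sample labels. Fibre markers differed within groups: Myh4, the fast IIB myosin, was 12.53, 12.48 and 12.73 in KO soleus and 10.90, 13.31 and 8.99 in WT soleus, and Myh7, the slow myosin, was 6.60, 9.39 and 6.86 in KO quadriceps and 8.60, 7.08 and 6.78 in WT quadriceps. Egln1 itself was 11.07 ± 0.04 in KO soleus against 11.27 ± 0.05 in WT soleus, and 10.82 ± 0.13 in KO quadriceps against 10.96 ± 0.02 in WT quadriceps (SD, n = 3 each). The differences of -0.20 and -0.14 did not pass the test (limma, adjusted p = 0.400 and 0.435), and the deleted part of the gene was not matched to the probe set, so the signal does not check the deletion.

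Between soleus and quadriceps 6 of the 10 genes were called in WT mice and 5 in KO mice. In WT mice Chrna1, Musk, Chrnd and Myf5 were higher in soleus, Myod1 and Myf6 were lower, and Chrnb1, Chrne and Chrng did not pass the test. The test was limma over 11963 genes whose mean reached the 40th percentile of genes, with a call at a Benjamini-Hochberg adjusted p under 0.05. Myog lay below that level and was not tested, which left 9 of the 10 genes. Myf5 was not called in KO mice. Among all genes tested 49.7% were called in WT mice and 45.7% in KO mice, so a call between these muscles was common. By direction, 4 of the 9 were higher and 2 lower in WT mice, beside 23% and 26.7% of all genes, and 3 were higher and 2 lower in KO mice, beside 23.7% and 22%. The median difference of the 9 genes was 0.02 in WT mice and 0.08 in KO mice, beside -0.01 and 0.01 over all genes.

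**Figure D1:**
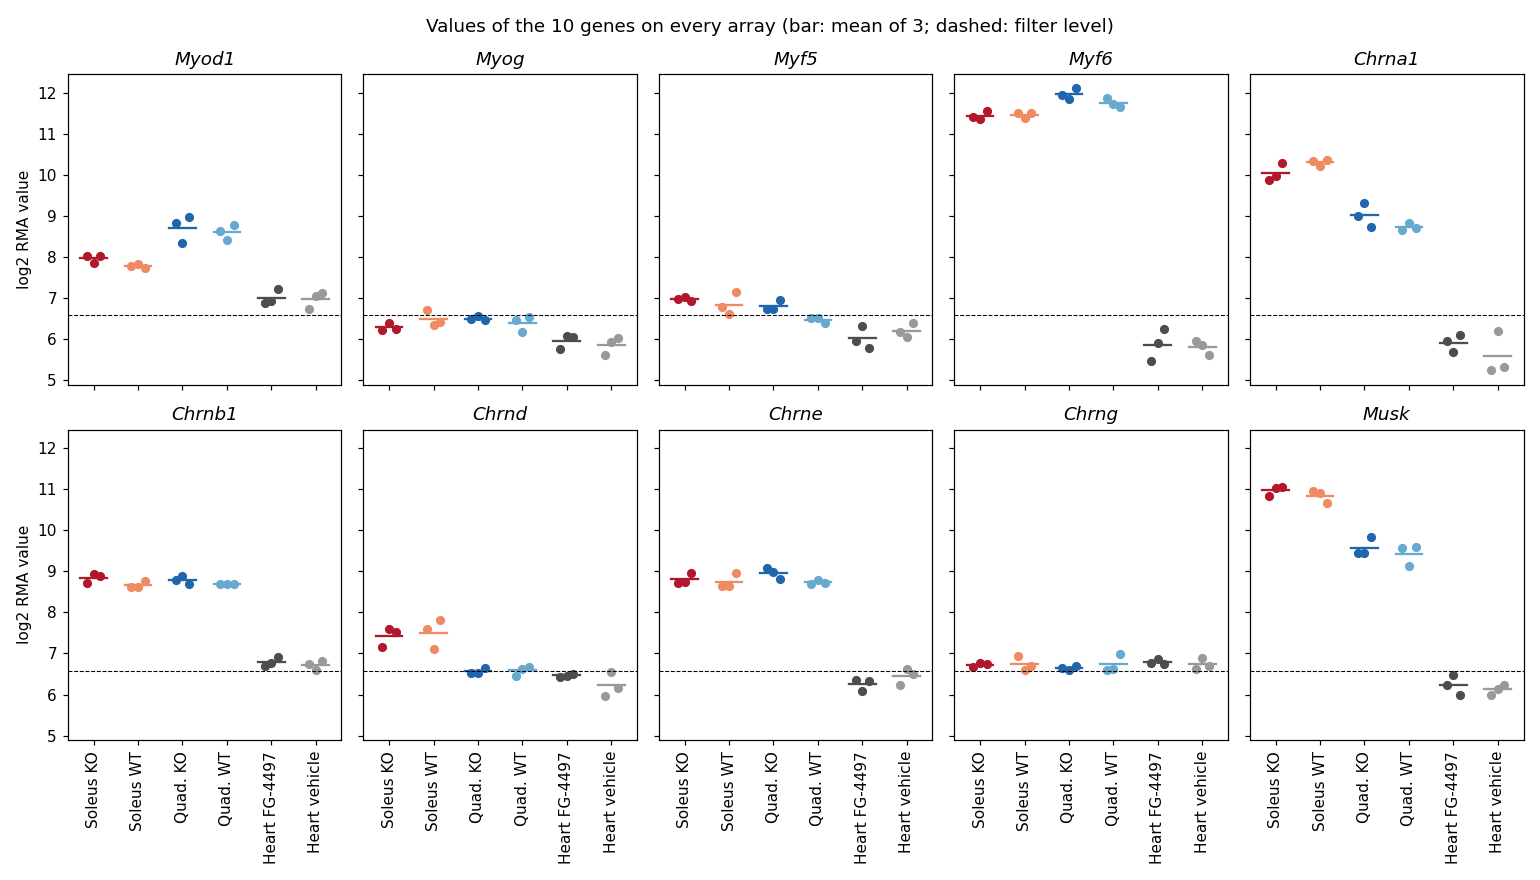
Log2 RMA value (vertical axis) of each of the 10 genes on all 18 arrays, in the 6 groups along the horizontal axis; each point is 1 array, bars are means of 3 arrays and the dashed line is the filter level of the 18-array fit, 6.58. Chrna1, Musk and Chrnd were higher in soleus than in quadriceps, Myod1 and Myf6 lower, and Chrng lay near the line in every group; heights are comparable within a gene, not between genes.

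Chrna1 encodes the alpha subunit, which carries most of the acetylcholine binding site. Its values were 9.87, 9.97 and 10.28 in KO soleus, 10.33, 10.22 and 10.37 in WT soleus, 9.01, 9.32 and 8.73 in KO quadriceps, and 8.66, 8.82 and 8.71 in WT quadriceps. Every soleus array lay above every quadriceps array, in both genotypes. Soleus minus quadriceps was 1.02 in KO mice (SE 0.13, adjusted p = 2.87e-05) and 1.58 in WT mice (SE 0.13, adjusted p = 4.43e-07), a fold of 2.03 and 2.99. Within single animals the difference ranged from 0.65 to 1.61 and was positive in 6 of 6.

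Musk works with Lrp4 as the receptor for agrin, the nerve-derived signal for receptor clustering. It was 10.83, 11.03 and 11.07 in KO soleus, 10.96, 10.91 and 10.67 in WT soleus, 9.45, 9.45 and 9.83 in KO quadriceps, and 9.56, 9.12 and 9.60 in WT quadriceps. The muscles did not overlap. The difference was 1.40 in KO mice (SE 0.12, adjusted p = 8.98e-07) and 1.42 in WT mice (SE 0.12, adjusted p = 6.57e-07), a fold of 2.64 and 2.67, and was positive in 6 of 6 animals with a range of 1.23 to 1.58.

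Chrnd, the delta subunit, was 7.16, 7.59 and 7.52 in KO soleus, 7.60, 7.11 and 7.81 in WT soleus, 6.51, 6.52 and 6.65 in KO quadriceps, and 6.46, 6.63 and 6.68 in WT quadriceps. Soleus was higher by 0.86 in KO mice (adjusted p = 0.000192) and by 0.92 in WT mice (adjusted p = 9.96e-05), again in 6 of 6 animals. The quadriceps values lay around the filter level of the muscle arrays, 6.54, where a difference can be compressed.

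The other subunits did not pass the test between the muscles. Chrnb1, the beta subunit, averaged 8.85 ± 0.11 in KO soleus against 8.79 ± 0.10 in KO quadriceps, and 8.67 ± 0.09 in WT soleus against 8.70 ± 0.005 in WT quadriceps (SD, n = 3 each). Its WT difference was -0.02, with a 95% interval of -0.17 to 0.12. Chrne, the adult epsilon subunit, averaged 8.81 ± 0.13 in KO soleus against 8.96 ± 0.13 in KO quadriceps, and 8.75 ± 0.18 in WT soleus against 8.73 ± 0.05 in WT quadriceps. Its WT difference was 0.02, with an interval of -0.18 to 0.21, and its KO difference was -0.15, with an interval of -0.34 to 0.05. Chrng, the fetal gamma subunit, was 6.73, 6.74, 6.65 and 6.74 on average in KO soleus, WT soleus, KO quadriceps and WT quadriceps, and its WT difference of 0.01 had an interval of -0.19 to 0.21. All 6 group means of Chrng, heart included, lay between 6.65 and 6.79, near the filter level, where a difference can be compressed, so its interval covers the spread between arrays only. No test set 1 subunit's difference against another's.

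Among the myogenic factors Myod1 was lower in soleus. Its values were 8.02, 7.86 and 8.02 in KO soleus, 7.78, 7.83 and 7.74 in WT soleus, 8.82, 8.33 and 8.96 in KO quadriceps, and 8.64, 8.43 and 8.78 in WT quadriceps. No soleus array reached the lowest quadriceps array. The difference was -0.74 in KO mice (SE 0.12, adjusted p = 0.000244) and -0.83 in WT mice (SE 0.12, adjusted p = 8.33e-05), and was negative in 6 of 6 animals.

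Myf6 was 11.41, 11.35 and 11.57 in KO soleus, 11.50, 11.39 and 11.50 in WT soleus, 11.94, 11.84 and 12.11 in KO quadriceps, and 11.87, 11.74 and 11.66 in WT quadriceps. It was lower in soleus by a smaller margin, with a difference of -0.52 in KO mice (adjusted p = 8.41e-05) and -0.29 in WT mice (adjusted p = 0.00531), in 6 of 6 animals. Without the 3 arrays whose fibre markers lay farthest towards the other muscle, the WT difference was -0.20 and did not pass (adjusted p = 0.0815).

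Myf5 went the other way from Myf6, its neighbour on chromosome 10 with 0 annotated genes between them. It was 6.97, 7.02 and 6.93 in KO soleus, 6.77, 6.60 and 7.14 in WT soleus, 6.74, 6.74 and 6.95 in KO quadriceps, and 6.52, 6.51 and 6.38 in WT quadriceps. All 3 WT quadriceps arrays were below the filter level, so WT soleus was higher by at least 0.30 (fitted difference 0.37, adjusted p = 0.00912). KO soleus exceeded KO quadriceps by 0.16, which did not pass (adjusted p = 0.221), but the difference between the genotypes, -0.21, did not pass either (adjusted p = 0.872). Myog averaged 6.28 in KO soleus, 6.48 in WT soleus, 6.50 in KO quadriceps and 6.39 in WT quadriceps, and 11 of these 12 arrays were below the filter level of the 18-array fit.

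**Figure D2:**
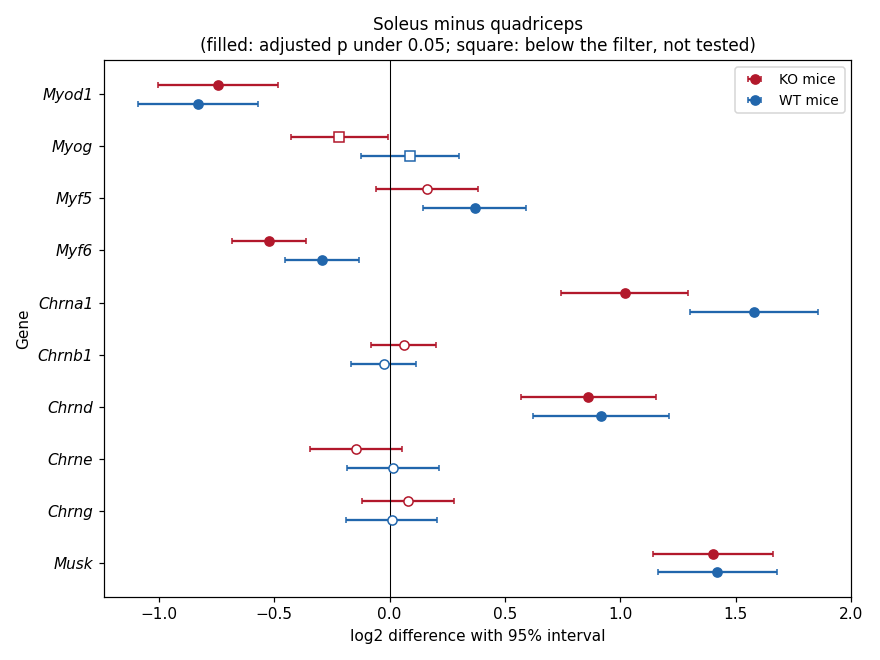
Soleus minus quadriceps for each gene, in log2 units on the horizontal axis with 95% intervals, in KO mice (red, upper point) and WT mice (blue, lower point); filled points passed an adjusted p of 0.05 and squares were below the filter. Chrna1, Musk and Chrnd lie right of 0 and Myod1 and Myf6 left of 0 in both genotypes, while Chrnb1, Chrne and Chrng straddle 0.

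In bulk tissue a lower share of a cell type and less RNA per cell cannot be told apart. Other lists moved between the same muscles: all 9 slow fibre markers were higher in soleus in both genotypes, 8 of 11 fast markers were lower in WT and 7 of 11 in KO mice, endothelial markers were higher (7 of 7 in KO and 6 of 7 in WT mice), and of 4 Schwann cell and nerve markers tested 2 were higher in KO and 3 in WT mice, led by Pmp22 at 0.93 and 1.06. The part of these cells and fibres in the differences above was not tested. Beside these marker counts, 45.7% of all genes were called in KO and 49.7% in WT mice. Of 11 neuronal acetylcholine receptor subunits only Chrna4 passed the filter, and its difference was 0.15 in KO mice and 0.01 in WT mice, without a call.

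Promoter windows were examined for the receptor subunits because some were called between the muscles and others were not. RefSeq windows of mouse build GRCm38.p6 matched 7 of the 10 genes, and Chrnd, Myod1 and Myf6 had none. The windows of Myf5 and Musk lay with 250 and 233 of their bases inside the annotated gene span, so they belong to another transcript's start and were not read, which left 5. Those of Chrnb1 and Chrne reached 29 and 19 bases into the span. The 250 bases before the start site of the alpha, gamma, beta and epsilon genes are shown, with E-boxes, CANNTG, in capitals. They lie at chr2:73580339-73580588 on the minus strand for Chrna1, chr1:87205561-87205810 on the plus strand for Chrng, chr11:69795938-69796187 on the minus strand for Chrnb1 and chr11:70619195-70619444 on the minus strand for Chrne.
Chrna1: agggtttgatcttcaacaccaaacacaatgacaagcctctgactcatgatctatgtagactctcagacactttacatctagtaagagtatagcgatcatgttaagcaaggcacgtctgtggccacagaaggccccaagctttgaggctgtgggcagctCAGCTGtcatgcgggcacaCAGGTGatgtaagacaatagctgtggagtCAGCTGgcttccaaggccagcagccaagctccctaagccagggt
Chrng: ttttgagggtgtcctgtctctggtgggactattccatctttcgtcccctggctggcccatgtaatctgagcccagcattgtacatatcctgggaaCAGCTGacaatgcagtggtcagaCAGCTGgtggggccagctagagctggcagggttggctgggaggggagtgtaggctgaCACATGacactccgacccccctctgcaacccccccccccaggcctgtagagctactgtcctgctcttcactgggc
Chrnb1: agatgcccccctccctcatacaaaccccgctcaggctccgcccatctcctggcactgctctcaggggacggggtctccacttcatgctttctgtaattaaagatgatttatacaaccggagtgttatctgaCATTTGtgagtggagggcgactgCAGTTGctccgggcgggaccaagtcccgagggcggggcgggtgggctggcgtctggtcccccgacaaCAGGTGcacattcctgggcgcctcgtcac
Chrne: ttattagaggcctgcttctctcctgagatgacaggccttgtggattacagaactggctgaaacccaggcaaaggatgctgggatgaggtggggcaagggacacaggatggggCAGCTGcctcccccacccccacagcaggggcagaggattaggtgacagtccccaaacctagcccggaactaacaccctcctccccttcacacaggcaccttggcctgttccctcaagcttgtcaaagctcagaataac
Chrna1, which was higher in soleus, held 3 E-boxes, at 92, 73 and 44 bases before the start, of which 2 had the core CAGCTG. Chrng also held 3, of which 2 had that core, and its difference between the muscles did not pass the test. Chrnb1 held 3 with other cores, and Chrne held 1, with the CAGCTG core, and 1 match to the N-box core CCGGAA at 76 bases before the start, in lower case above. Myog held 2, with other cores. Both strands were searched, CANNTG and CAGCTG overlap by design, and of 32851 RefSeq windows of the same length 66.2% held CANNTG, 13.0% held CAGCTG and 12.03% held CCGGAA. A match is a string of letters and not a measured binding site.

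**Figure D3:**
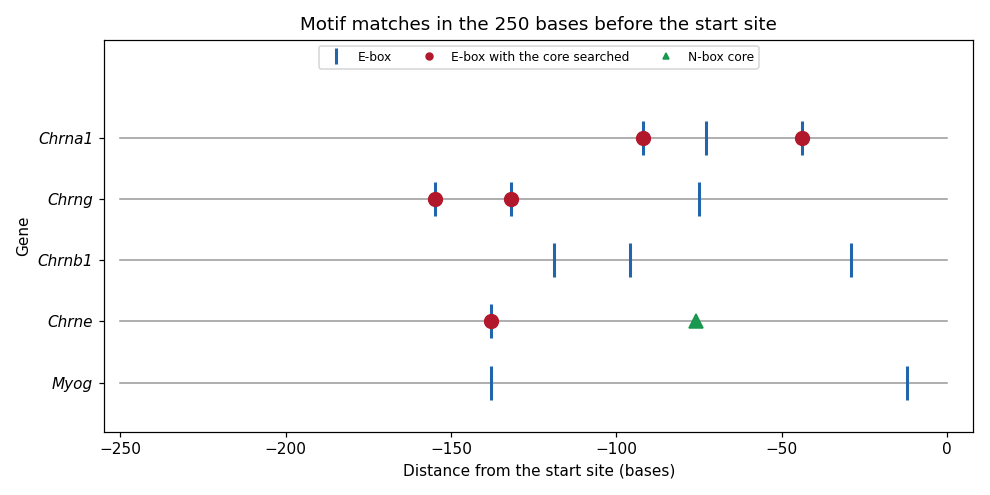
Positions of E-boxes (blue ticks), E-boxes with the CAGCTG core (red circles) and the N-box core (green triangle) in the 250 bases before the start site of 5 genes, with distance from the start on the horizontal axis. CAGCTG was present in Chrna1, which was higher in soleus, and in Chrng and Chrne, which did not pass the test.

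Genes of the same pathway were read from lists. The soleus and quadriceps counts of the 4 lists stand beside 23.7% of all genes higher and 22% lower in KO soleus. In WT soleus these shares were 23% and 26.7%. Of 14 tested genes of the postsynaptic membrane and cleft, 7 were higher and 2 lower in soleus in each genotype, with a median of 0.17 in KO mice and 0.18 in WT mice. Erbb3, a neuregulin receptor, was higher by 0.85 in KO and 1.10 in WT mice, Colq, the collagen tail that anchors acetylcholinesterase, by 0.59 and 1.00, and Lrp4, the agrin receptor that acts with Musk, by 0.68 and 0.83. Ache, acetylcholinesterase itself, was lower, at -0.94 in KO and -0.88 in WT mice. The largest adjusted p among these 4 genes was 5.10e-05. Colq and Ache, partners in 1 enzyme complex, were thus called in opposite directions between the muscles.

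Of 11 denervation-responsive genes, 6 were higher and 2 lower in soleus in each genotype. The list was not split by the direction of the response, so its count is not read as a denervation pattern. Myh3, the embryonic myosin, was higher by at least 1.97 in KO and 2.27 in WT mice, Dach2, a repressor of Myog, by at least 0.65 and 1.22, since all quadriceps arrays were below the filter level, and Ncam1, the neural cell adhesion molecule, by 1.10 and 1.33. Sln, sarcolipin, an inhibitor of the muscle calcium pump, was higher by at least 0.77 in KO soleus. All KO quadriceps arrays of Sln were below the filter level. The filter thus favoured the direction of Myh3, Dach2 and Sln, and their calls, also within the count, are not read as support. Gadd45a, a stress-induced gene that rises after denervation, was lower by 1.06 in KO soleus (adjusted p = 1.35e-06) and by 0.85 in WT soleus (adjusted p = 7.92e-06). Between the muscles 45.7% of all genes were called in KO and 49.7% in WT mice. Of 11 satellite cell and myoblast genes, 5 were higher in KO and 4 in WT soleus and 0 were lower in either. Among them Sdc4, a surface proteoglycan of satellite cells, was higher by 0.76 and 0.88, and Itga7, the laminin-binding integrin of muscle, by 0.57 and 0.55, while the satellite cell marker Pax7 was higher by 0.15 in KO soleus (adjusted p = 0.0439), a call that was lost in 12 of 15 alternatives, among them those without KO soleus replicate 2 or 3 or any 1 of the KO quadriceps arrays. Calcr, the calcitonin receptor of quiescent satellite cells, was higher by at least 0.15 in WT soleus (adjusted p = 0.0348), a call lost in 8 of 15 alternatives, among them those without WT soleus replicate 2 or 3 or any 1 of the WT quadriceps arrays. Its quadriceps means, 6.44 in KO and 6.31 in WT mice, lay below the filter level. It thus entered the test through soleus, and its p is not read as support. Without the filter the adjusted p was 0.0602 (limma). The satellite cell counts, near or below the share of all genes, include Pax7 in KO and Calcr in WT mice.

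Of 16 partners and repressors of the myogenic factors, 4 were higher and 4 lower in KO soleus, and 6 were higher and 6 lower in WT soleus. Beside these counts, 45.7% of all genes were called in KO and 49.7% in WT mice. Id2, Id3 and Id1, which bind E proteins and keep them from the myogenic factors, were higher in WT soleus by 0.61, 0.61 and 0.60, and Bhlhe41, a helix-loop-helix repressor, was lower by 0.65. In KO soleus Six4, a homeodomain factor that acts upstream of the myogenic factors, was higher by 0.53 (adjusted p = 0.000301), Tcf4, an E protein, by 0.40 and Id2 by 0.38, and Bhlhe41 was lower by 0.52.

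The genes most like each member across the 12 muscle arrays are given as description only. Those arrays fall into a soleus and a quadriceps cluster, which weighs on the correlations of members that differed between the muscles. Every closest gene was also picked as the best of all named genes at or above the filter level, so its value is raised by that choice. Musk was closest to Nnt (Pearson r 0.991), Retreg1 (0.983) and Gna13 (0.983), Chrna1 to Unc13b (0.987), Ckmt2 (0.985) and Tmem150c (0.982), and Chrnd to Grb14 (0.974), Rab21 (0.973) and Smpx (0.971). Myod1 was closest to Slc2a3 (0.975), Sav1 (0.975) and Cdkal1 (0.971), and Myf6 to Rpp38 (0.958), Lpin1 (0.949) and Nhsl1 (0.942). For the members that did not separate the muscles in both genotypes the best values were lower, at 0.912 for Myf5 with Tedc2, 0.899 for Chrnb1 with Glrx, 0.860 for Chrng with Kcna3, 0.802 for Chrne with Hoxa5 and 0.782 for Myog with Ikbke. Between members, Chrna1 and Musk correlated at 0.904 over the 12 arrays, but at -0.405 once each group's mean was removed, and Chrna1 and Myod1 at -0.937 and -0.684.

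The muscle arrays addressed the effect of losing Egln1. None of the 9 tested genes was called between KO and WT mice in either muscle. In soleus 0 of 9 passed, beside 0.184% of all genes tested, and 1 of 9 had an unadjusted p under 0.05, beside 7.56%. In quadriceps 0 of 9 passed, beside 0.794%, and 3 of 9 had an unadjusted p under 0.05, beside 12.2%. Averaged over both muscles 0 of 9 passed, beside 0.911%, with 2 of 9 at an unadjusted p under 0.05, beside 12.1%. Limma was the only tool run.

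In soleus the widest difference was that of Chrna1, at -0.27 (95% interval -0.57 to 0.03, adjusted p = 0.738). KO values of 9.87, 9.97 and 10.28 stood against WT values of 10.33, 10.22 and 10.37, and the groups overlapped. Chrnb1 was 8.72, 8.94 and 8.88 in KO soleus and 8.63, 8.61 and 8.78 in WT soleus, a difference of 0.17 with an interval of 0.02 to 0.33 that did not pass after adjustment (adjusted p = 0.580). The 3 KO values of Myod1 lay above the 3 WT values, by a mean of 0.18 (adjusted p = 0.869), and it was 1 of 9 members without overlap, beside 12.7% of all genes. Musk differed by 0.13, with an interval of -0.15 to 0.42, Myf5 by 0.14, Chrne by 0.07, and Myf6, Chrng and Chrnd by -0.02, -0.02 and -0.08. Myog, not tested, averaged 6.28 in KO soleus and 6.48 in WT soleus.

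In quadriceps Myf5 differed most. Its values were 6.74, 6.74 and 6.95 in KO mice and 6.52, 6.51 and 6.38 in WT mice, a fitted difference of 0.34 and at least 0.28, since all WT arrays were below the filter level (adjusted p = 0.218). Chrna1 differed by 0.29 (interval -0.01 to 0.59, adjusted p = 0.439), with overlap, by 0.136 to 0.456 without each array in turn, and by 0.10 without the 3 arrays of mixed fibre markers. Chrne was 9.09, 8.97 and 8.82 in KO and 8.69, 8.79 and 8.72 in WT mice, without overlap, and differed by 0.23 (interval 0.01 to 0.45, adjusted p = 0.384). Myf5 and Chrne were 2 of 9 members without overlap, beside 17.1% of all genes. Myf6 differed by 0.21 (adjusted p = 0.315), Musk by 0.15 (0.0137 to 0.225 without each array in turn), Chrnb1 by 0.09 (0.0474 to 0.140), Myod1 by 0.09, and Chrnd and Chrng by -0.03 and -0.09. Myog, not tested, averaged 6.50 in KO quadriceps and 6.39 in WT quadriceps. The median of the 9 differences was 0.15 in quadriceps and 0.07 in soleus, beside -0.02 and 0.00 over all genes.

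Averaged over both muscles the KO effect was 0.24 for Myf5 (interval 0.05 to 0.43, adjusted p = 0.271) and 0.13 for Chrnb1 (interval 0.01 to 0.25, adjusted p = 0.352). It was 0.13 for Myod1, 0.09 for Myf6, 0.01 for Chrna1, 0.15 for Chrne, 0.14 for Musk, -0.05 for Chrnd and Chrng, and -0.04 for Myog, which was not tested.

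The KO effect itself was compared between the muscles. Chrna1 had the widest gap, -0.56 (interval -0.95 to -0.17), from -0.27 in soleus and 0.29 in quadriceps, but it did not pass after adjustment over all genes (adjusted p = 0.609 by limma). Without each array in turn the gap ranged from -0.73 to -0.40, and without the 3 arrays of mixed fibre markers it was -0.41. The gap was -0.23 for Myf6, -0.21 for Myf5, -0.16 for Chrne, -0.05 for Chrnd and -0.02 for Musk, and 0.09, 0.09 and 0.07 for Myod1, Chrnb1 and Chrng. For Myog, not tested, it was -0.31. No member was called, beside 0.00836% of all genes, and 2 of 9 had an unadjusted p under 0.05, beside 6.55%.

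**Figure D4:**
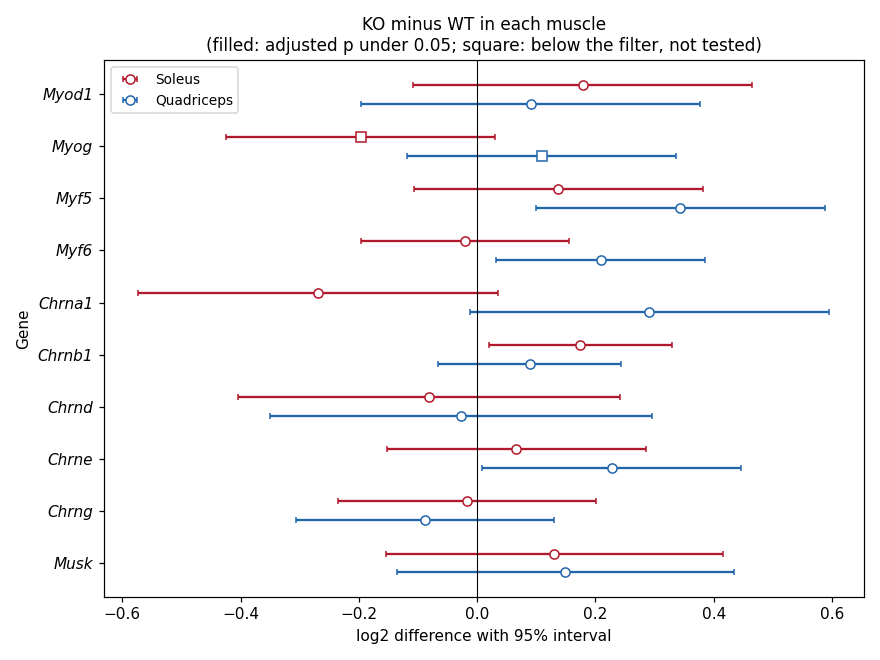
KO minus WT for each gene, in log2 units on the horizontal axis with 95% intervals, in soleus (red, upper point) and quadriceps (blue, lower point); open points did not pass an adjusted p of 0.05 and squares were below the filter. All points are open, and Chrna1 lies left of 0 in soleus and right of 0 in quadriceps.

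The pathway lists held few calls for the KO comparison, beside 0.184% of all genes called in soleus, 0.794% in quadriceps and 0.911% on average. None of the 14 synaptic, 11 satellite cell and 16 partner genes was called in soleus, in quadriceps or on average. Dok7, the adaptor that activates Musk, had the widest synaptic difference in soleus, 0.40 (adjusted p = 0.105), and on average, 0.26. Erbb3 had it in quadriceps, at 0.36 (adjusted p = 0.0749, and 0.0229 with array weights). Id1 had the widest partner difference in soleus, -0.55 (adjusted p = 0.176), and on average, -0.37 (adjusted p = 0.133). Id1 was called under 2 alternatives in both, with an adjusted p of 0.00514 in soleus and 0.00554 on average without KO soleus replicate 3, and of 0.0331 and 0.0313 with array weights. Id2 had the widest partner difference in quadriceps, 0.33, and of the satellite cell list it was Sdc4 in soleus, -0.27, and Vcam1, an adhesion molecule, in quadriceps, 0.34, and on average, 0.28. Dach2 had the widest denervation difference in soleus, -0.57 (adjusted p = 0.154), and Trim63 in quadriceps, -0.72 (adjusted p = 0.0634, and 0.0133 to 0.0336 in 3 alternatives). For the difference of KO effects the widest of each list were Colq at -0.41, Ankrd1 at -0.65, Ncam1 at -0.24 and Id1 at -0.35, and 0 were called. Of the 11 denervation-responsive genes 2 were called on average over the muscles, both lower: Trim63, at -0.58 (adjusted p = 0.0499905), and Fbxo32, at -0.54 (adjusted p = 0.0459), the muscle ubiquitin ligases known as MuRF1 and atrogin-1. Fbxo32 was 11.36, 11.35 and 11.32 in KO soleus against 11.64, 11.77 and 11.76 in WT soleus, and 11.03, 11.14 and 11.75 in KO quadriceps against 12.13, 11.92 and 11.93 in WT quadriceps, with no overlap in either muscle. Both calls were close to the threshold: Fbxo32 lost its call in 16 of 20 alternatives, with adjusted p values up to 0.209, and Trim63 in 13 of 20, up to 0.163. Among these, the call ended without each array in turn except KO quadriceps replicate 3 for Fbxo32, and except KO soleus replicate 3, KO quadriceps replicate 2 and WT quadriceps replicate 2 for Trim63. Myh4 differed between KO and WT soleus by 1.51 (adjusted p = 0.685), and the part of such fibre differences in the members' values was not tested.

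In the heart 7 of the 10 genes lay below the filter level of the heart arrays, 6.61, on average: Myog, Myf5, Myf6, Chrna1, Chrnd, Chrne and Musk. Myod1, Chrnb1 and Chrng passed. None of the 3 was called after FG-4497, beside 2.23% of all genes, and 0 of 3 had an unadjusted p under 0.05 by limma, beside 11.3%. Myod1 was 6.87, 6.93 and 7.21 in FG-4497 hearts and 6.74, 7.04 and 7.13 in vehicle hearts, a difference of 0.03 (interval -0.23 to 0.30). Chrnb1 was 6.69, 6.78 and 6.92 in FG-4497 hearts and 6.75, 6.59 and 6.82 in vehicle hearts, a difference of 0.08 (interval -0.13 to 0.28). Chrng was 6.76, 6.86 and 6.74 in FG-4497 hearts and 6.625, 6.886 and 6.697 in vehicle hearts, a difference of 0.05 (interval -0.14 to 0.25). The groups overlapped for all 3 genes, and near the filter level a difference can be compressed.

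Of the 16 partners and repressors tested in the heart, 2 rose and 1 fell after FG-4497, beside 2.23% of all genes called. Bhlhe40, a repressor induced by hypoxia that can bind E-boxes, rose by 1.78 (SE 0.19, adjusted p = 0.000493), Id2 rose by 1.28 (SE 0.11, adjusted p = 9.70e-05), and Id3 fell by 0.82 (SE 0.14, adjusted p = 0.00968), a call lost without FG-4497 replicate 2 (adjusted p = 0.0538). Sdc4, of the satellite cell list, rose by 0.54 (adjusted p = 0.0208), a call lost in 5 of 12 alternatives, among them those without vehicle replicate 2 or 3 or FG-4497 replicate 1 or 3. None of the 14 synaptic genes and 8 denervation-responsive genes tested in the heart was called. The widest of these were Etv5, an ETS factor, at 0.13 (adjusted p = 0.817), and Fbxo32, at 0.35 (adjusted p = 0.0933), which was called with the trended and robust prior (adjusted p = 0.00738). Of 7 endothelial markers, Cldn5 and Flt1 rose with the same treatment, by 1.44 and 0.46, and the others did not pass, with Kdr at 0.32, Pecam1 at 0.11, Cdh5 at -0.12, Emcn at -0.19 and Tek at -0.33. The mean of the 7 lay between 10.48 and 10.57 in FG-4497 hearts and between 10.26 and 10.32 in vehicle hearts. The part of endothelial cells in these changes was not tested.

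Heart and skeletal muscle were set side by side in 1 fit over the 18 arrays, in which 8 of the 10 genes passed the filter. Myf6, Chrna1, Musk and Chrnd passed through the muscle arrays, since each was below the level on every heart array. Chrne passed in the same way, with 2 of 3 vehicle and 3 of 3 FG-4497 heart arrays below the level. For these genes the filter itself fixed much of the direction, and no count over the members is read here. Of all genes tested 60.1% were called against WT soleus and 66.9% against WT quadriceps. Tissue and experiment cannot be told apart here, because the labels give the Cre and tamoxifen for the muscle mice alone.

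Myf6 was 5.95, 5.86 and 5.62 in vehicle heart, below the filter level on every array, so it was lower by at least 4.89 than in WT soleus and by at least 5.18 than in WT quadriceps, at least 29.6-fold and 36.2-fold. Musk was 6.00, 6.14 and 6.24 in vehicle heart and lower by at least 4.27 and 2.85. Chrna1 was 5.23, 6.21 and 5.31 in vehicle heart and lower by at least 3.73 and 2.15. The largest adjusted p of these 6 differences was 1.86e-10 (limma). It is not read as support, because these genes entered the test through the muscle arrays alone.

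Chrne was 6.23, 6.62 and 6.51 in vehicle heart, with 2 of the 3 arrays and the mean below the filter level. Measured from that level on those 2 arrays, it was lower by at least 2.16 than in WT soleus and by at least 2.14 than in WT quadriceps. Chrnb1 averaged 6.72 ± 0.12 and was lower by 1.95 and 1.98, a fold of 3.87 and 3.94. Its heart values lay near the filter level, where a difference can be compressed. Myod1 averaged 6.97 ± 0.20 in vehicle heart and was lower by 0.81 than in WT soleus (adjusted p = 5.87e-05) and by 1.64 than in WT quadriceps (adjusted p = 6.68e-09). Chrnd also entered the test through the muscle arrays, so its adjusted p below is not read as support. It was lower by at least 0.93 than in WT soleus. Against WT quadriceps its groups overlapped and the bound was 0.01 (adjusted p = 0.0464), and 7 of 13 alternatives ended that call, among them those without any 1 of the WT quadriceps arrays or without vehicle heart replicate 1 or 3, with adjusted p values up to 0.220.

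Chrng passed the test in none of the comparisons run, and its 6 group means lay between 6.65 and 6.79. It averaged 6.79 in FG-4497 heart and 6.74 in vehicle heart, and vehicle heart minus WT soleus was -0.01 (interval -0.21 to 0.20) and minus WT quadriceps 0.00 (interval -0.21 to 0.21). Myog and Myf5 did not pass the filter of this fit. Myog was 5.61, 5.93 and 6.03 and Myf5 was 6.17, 6.05 and 6.38 in vehicle heart, below that level on each array.

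**Figure D5:**
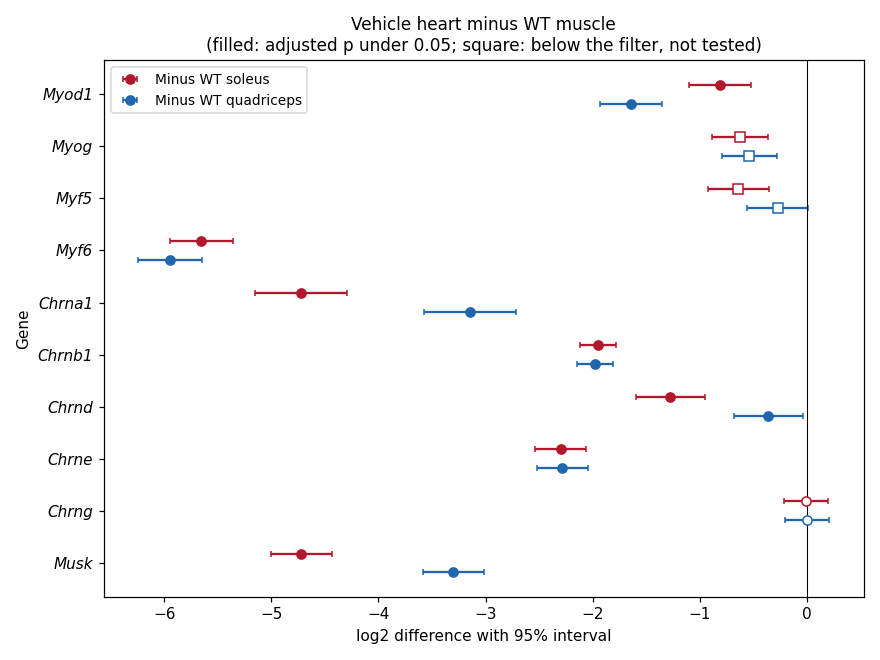
Vehicle heart minus WT soleus (red, upper point) and minus WT quadriceps (blue, lower point) for each gene, in log2 units on the horizontal axis with 95% intervals; filled points passed an adjusted p of 0.05 and squares were below the filter. Myf6, Chrna1 and Musk lie farthest left of 0 and Chrng lies on 0.

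The lists were read in the same comparison, where a gene high in muscle alone can pass the filter. Their counts, here and in the next paragraph, are thus description only. They stand beside 60.1% of all genes called against WT soleus and 66.9% against WT quadriceps. Of 16 partner genes 5 were higher and 7 lower in vehicle heart than in WT soleus, and 5 higher and 8 lower than in WT quadriceps. Mef2c, a cofactor of the myogenic factors that the heart also uses, was lower by 2.75 and 2.69, Eya1, a coactivator of Six4 and its relatives, by 2.48 and 2.885, and Six4 by 2.45 and 2.00. Bhlhe40 was lower than in WT soleus by 1.73, and Bhlhe41 lower than in WT quadriceps by 2.03. Of 14 synaptic genes 7 were higher and 6 lower than in WT soleus, and 9 higher and 2 lower than in WT quadriceps. Erbb4, the neuregulin receptor of cardiomyocytes, was higher by at least 2.05 in both comparisons, and Agrn, agrin, by 0.89 and 1.19, while Ache was lower by 1.36 and 2.23. Lamb2, a laminin of the synaptic basal lamina, was higher than in WT soleus by 0.73, and Utrn, utrophin, higher than in WT quadriceps by 1.05.

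Of 10 satellite cell genes 1 was higher and 5 lower than in WT soleus, and 2 higher and 4 lower than in WT quadriceps. Cdh15, the cadherin of satellite cells, was lower by 1.37 and 1.43, and Ncam1 by 1.79 and 0.46, while Vcam1, which endothelial cells also make, was higher by 0.81 and 0.83. Sdc4 was lower than in WT soleus by 1.21, and Des, desmin, lower than in WT quadriceps by 0.43. Of 9 denervation-responsive genes 2 were higher and 7 lower than in WT soleus, and 1 higher and 7 lower than in WT quadriceps. Ankrd1, a stress-responsive protein abundant in the heart, was higher by 3.49 and 3.73, and Myh8, the perinatal myosin, was lower by 1.74 and 1.19. Myh3 was lower than in WT soleus by at least 2.23. Hdac4, a deacetylase that links denervation to gene expression, was lower than in WT quadriceps by 1.05, and Fbxo32 by 0.95.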

How the data were processed

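RNA from mouse soleus, quadriceps and heart was hybridised to Affymetrix arrays, and 18 arrays in 6 groups of 3 were analysed. The authors deposited log2 values from RMA, a method that subtracts background, equalises the arrays' distributions and condenses probes, as the submitters' processing notes name it; its version and which arrays it was run on jointly are not stated in the sources at hand. The platform annotation assigned a single gene to 21789 of 35556 probe sets, more than 1 gene to 1621 and no gene to 12146; each gene was taken from its brightest probe set by the mean over 18 arrays, which left 19938 genes. Gene identifiers of 21698 probe sets were matched to RefSeq, and their symbols were taken from it.

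Linear models were fitted with limma 3.58.1 in R 4.3.3. The 12 muscle arrays entered 1 fit of 4 group means with animal as a random block (consensus correlation 0.178), the 6 heart arrays entered a fit of their own, and all 18 arrays entered a separate fit (0.210) for heart against muscle. Genes with a mean at or above the 40th percentile were tested, 11963 in each fit, and p-values were adjusted over them by the Benjamini-Hochberg method, with a call at an adjusted p under 0.05. A difference from a group with all arrays below the filter level is given as a bound measured from that level. The soleus and quadriceps arrays of 1 animal were paired by the number in their descriptions; deviations from group means correlated at 0.002 to 0.386 in the 6 pairs, over 0.1 in 4. The arrays' number limits the precision, and p-values measure the spread between arrays labelled biological replicates.

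All 10 members are named in every comparison. From each of 4 pathway lists (synaptic, denervation, satellite cell, partner) up to 4 called genes with the largest difference are named, or the widest gene where none was called; marker lists are given by counts and levels, and genes named from them, Gadd45a in KO soleus and Myh4 were chosen with their values seen; and the closest genes of a member are the 3 with the highest correlation over the muscle arrays. Genes and lists were chosen with earlier results of these data known. Alternatives changed the filter, normalization, prior, array weights, probe set choice, block, fibre covariate and arrays used. Promoter windows came from the RefSeq table of GRCm38.p6.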

Additional observations from a re-analysis of the deposited data

How the results depend on the processing

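With 3 arrays a group, differences near the filter level and below about the spread between arrays were not resolved. Over 73 results for the members, 1171 alternatives gave 1098 with the same direction and side of the threshold, 17 that lost the threshold and 56 with a turned sign, and 0 gained a call; among the named genes of the pathway lists Id1, Erbb3, Trim63 and Fbxo32 gained calls. With the slow fibre mean as a covariate 0 members were called in place of 5 between KO soleus and KO quadriceps and in place of 6 between WT soleus and WT quadriceps; that covariate separates the muscles by construction, and 49 and 60 of all genes were called under it. Most of these differences kept their direction, at 1.53 in KO and 1.56 in WT mice for Musk, 1.12 and 1.19 for Chrnd, 0.337 and 0.843 for Chrna1, -0.589 and -0.365 for Myf6, and 0.245 in WT mice for Myf5. Its turned values were 0.312 and 0.309 for Myod1 in KO and WT mice, -0.0115 for Chrna1 in the averaged KO effect, -0.125 for Chrnb1 in KO mice, -0.200 for Calcr in WT mice, 0.273 and 0.204 for Bhlhe41 in KO and WT mice, and -0.303 and -0.122 for Id2. Array weights gave -0.0317 for Chrna1 in the averaged KO effect, 0.0476 for Musk in the difference of KO effects, and -0.0182 and -0.0851 for Chrng between WT muscles and between vehicle heart and WT quadriceps, where repeated quantile normalization gave -0.0137 and -0.0993. The mean of all probe sets gave -0.0014 for Etv5 in heart. Without the 3 arrays of mixed fibre markers (WT soleus replicate 2, KO quadriceps replicate 2 and WT quadriceps replicate 1), an alternative chosen after seeing the data, the value was -0.106 for Chrna1 in the averaged KO effect, -0.0799 for Myod1 in the difference of KO effects and 0.00543 for Chrnb1 between WT muscles. The cause of these turns was not tested.

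Leaving out 1 array at a time ended none of the members' soleus and quadriceps calls. It turned the sign of values near 0. In the KO effect averaged over the muscles Chrna1 ranged from -0.0667 to 0.0937, Chrnd from -0.147 to 0.0189 and Chrng from -0.0863 to 0.00357. In the difference of KO effects Chrnd ranged from -0.240 to 0.0922, Chrng from -0.0420 to 0.150, Musk from -0.0943 to 0.117 and Myod1 from -0.0916 to 0.212. In soleus KO minus WT Chrnd ranged from -0.267 to 0.0650, Chrne from -0.0219 to 0.166, Chrng from -0.0842 to 0.0615 and Myf6 from -0.0708 to 0.0158. In quadriceps KO minus WT Chrnd ranged from -0.0620 to 0.0114, Chrng from -0.146 to 0.0246 and Myod1 from -0.0330 to 0.270. Between WT muscles Chrnb1 ranged from -0.0764 to 0.00470, Chrne from -0.0841 to 0.0719 and Chrng from -0.0699 to 0.122. In heart after FG-4497 Chrng ranged from -0.00250 to 0.128 and Myod1 from -0.0814 to 0.114, and between vehicle heart and WT muscle Chrng ranged from -0.0838 to 0.0681 for soleus and from -0.0748 to 0.112 for quadriceps.

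The animal block changed no member's call, though Pax7 lost its call without it (adjusted p = 0.0741 by limma) and with a fixed block (0.0546), and Calcr without it (0.0732): with no replicate block, and with a fixed block by animal, 5 members were called between the muscles in KO mice and 6 in WT mice, and with a block by title number, which the samples share only as a number, 0 were called in KO comparisons and in heart. Title numbers correlated at -0.13 to 0.02 in soleus, -0.31 to 0.07 in quadriceps and -0.15 to 0.16 in heart. Over all genes, calls ranged over the alternatives from 4 to 67 in soleus KO minus WT (22 as reported), 12 to 226 in quadriceps (95), 61 to 258 on average (109), 0 to 3 for the difference of KO effects (1) and 147 to 374 in heart (267); the lowest of the first 2 came with the block by title number, and 176 were called on average with no replicate block.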
